A study of Mus musculus with 93 samples.

Results

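Imprinted genes are expressed mainly from the copy inherited from 1 parent. The 33 genes described here were taken from a list of known mouse imprinted genes, by symbol, and every one of them is among the 24514 gene symbols of the count table. Of these, 18 are known as paternally expressed (Igf2, Dlk1, Rtl1, Peg3, Usp29, Peg10, Sgce, Mest, Kcnq1ot1, Plagl1, Ndn, Magel2, Mkrn3, Snrpn, Airn, Nnat, Impact and Slc38a4) and 15 as maternally expressed (H19, Meg3, Rian, Mirg, Zim1, Ppp1r9a, Asb4, Cdkn1c, Phlda2, Ascl2, Grb10, Ube3a, Igf2r, Gnas and Dcn). They fall into 15 loci. The counts do not separate the parental copies, so the expressed allele is background knowledge and was not measured, and for some members, such as Ube3a, Gnas, Ascl2, Ppp1r9a and Dcn, imprinting is known to be restricted to certain tissues.

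The study compared 2 pools of cardiac progenitors, those of the first heart field (FHF) and of the second (SHF), in vivo and in vitro. All cells carried the alleles Hcn4-GFP, Tbx1-Cre and Ai9. GFP+ cells expressed the Hcn4-GFP reporter of the FHF, and RFP+ cells carried the permanent Ai9 label left by Tbx1-Cre in the SHF lineage, which stays on after Tbx1 itself is turned off. In vivo libraries came from embryos at E7.75 by the protocol (the titles give E8.5), with 5 GFP+ and 4 RFP+ libraries. In vitro libraries came from spheroids of mouse embryonic stem cells (ESCs) with the same alleles at day 5.5 of a differentiation induced with morphogens, with 38 GFP+ and 46 RFP+ libraries. Each library is 1 well of 10 sorted cells. The ESC line is a single one. Which embryo or differentiation a well came from is not given, so the p-values measure only well-to-well spread, which may be technical.

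Total counts were 712732 to 2525460 in vivo and 445071 to 5658882 in vitro, apart from the GFP+ well C9 with 6288. Genes detected per library in vivo were 6189 to 8302 in GFP+ and 10263 to 13052 in RFP+ cells. In vitro they were 12837 to 14671 in GFP+ wells other than C9 (3082) and 11434 to 13880 in RFP+ wells. In 7 plate rows the RFP+ wells of columns 3 and 4 were near-identical (r between log2 CPM of 0.976 to 0.994), yet their counts differed by more than sampling noise (chi-square per degree of freedom 1.37 to 2.39, against at least 2.68 between other RFP+ wells), and they were kept as separate libraries. This does not show that they held separate cells, and if they did not, the 46 wells count some material 2 times. With these pairs summed, the same 6 members were higher and the same 16 lower in RFP+ cells in vitro (37.9% and 39% of all genes). GFP+ and RFP+ wells in vitro lay in different plate columns, so column and population cannot be told apart. In vivo, GFP+ wells lay in plate rows A to E and RFP+ wells in rows F to H, so row and population cannot be told apart there. Hcn4 had reads in 5 of 5 GFP+ and 1 of 4 RFP+ libraries in vivo, and in 37 of 38 and 18 of 46 in vitro. Tbx1 had reads in 3 of 4 RFP+ and none of 5 GFP+ libraries in vivo, and in 41 of 46 and 2 of 38 in vitro.

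Imprinting is set in the germ line by DNA methylation at control regions, which is kept on 1 parental copy through early development. Imprinted genes lie in clusters in which a control region, and often a long noncoding RNA, sets which genes are silent on which copy. Many of them act on growth. Igf2 is a fetal growth factor, Igf2r clears IGF2 from the cell surface, Grb10 is an adaptor that dampens insulin and IGF receptor signalling, Cdkn1c is the Cdk inhibitor p57, and Phlda2 limits placental growth.

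At control regions the zinc finger protein ZFP57, with TRIM28, binds the hexamer TGCCGC when its CpG is methylated. RefSeq start site windows of 300 bases (250 before to 50 after a gene's start, GRCm38.p6) were found for 26 of the members, with 43 windows in all because several genes have more than 1 start. The hexamer, searched on both strands, is in 9 of the 43 windows (20.9%, from 8 genes) and in 3813 of 32851 windows of all genes (11.6%). Several windows of 1 gene overlap, and the members' windows hold a median of 11 CG dinucleotides against 7 over all windows. The motif GCCATNTT of the factor YY1 is in 3 of 43 windows (6.98%) and in 6.05% of all. A match is a run of letters, and neither methylation nor binding was measured.

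Windows are printed here for 5 members on which the results below turn and which hold the hexamer. Capitals mark it, here always as its reverse complement. They are chr11:12037371-12037670 on the minus strand (Grb10), chr10:13090582-13090881 (Plagl1), chr6:30737800-30738099 (Mest), chr12:109540746-109541045 (Meg3) and chr2:157559828-157560127 (Nnat), the last 4 on the plus strand.
Grb10: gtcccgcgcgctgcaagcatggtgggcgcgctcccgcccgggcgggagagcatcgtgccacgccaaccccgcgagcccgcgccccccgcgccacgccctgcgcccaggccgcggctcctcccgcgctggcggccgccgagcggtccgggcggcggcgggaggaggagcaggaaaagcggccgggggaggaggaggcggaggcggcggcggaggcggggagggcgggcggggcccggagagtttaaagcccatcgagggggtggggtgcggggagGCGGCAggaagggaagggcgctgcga
Plagl1: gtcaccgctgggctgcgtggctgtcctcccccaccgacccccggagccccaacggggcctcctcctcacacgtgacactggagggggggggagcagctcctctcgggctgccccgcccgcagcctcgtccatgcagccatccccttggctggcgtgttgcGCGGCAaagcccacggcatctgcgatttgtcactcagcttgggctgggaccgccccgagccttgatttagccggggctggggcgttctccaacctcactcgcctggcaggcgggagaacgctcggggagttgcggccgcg
Mest: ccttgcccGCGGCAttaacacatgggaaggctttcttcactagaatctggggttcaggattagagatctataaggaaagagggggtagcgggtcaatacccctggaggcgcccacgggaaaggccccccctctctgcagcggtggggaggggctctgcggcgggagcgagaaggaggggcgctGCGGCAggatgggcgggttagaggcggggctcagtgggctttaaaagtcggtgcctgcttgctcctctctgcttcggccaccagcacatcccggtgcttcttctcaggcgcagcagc
Meg3: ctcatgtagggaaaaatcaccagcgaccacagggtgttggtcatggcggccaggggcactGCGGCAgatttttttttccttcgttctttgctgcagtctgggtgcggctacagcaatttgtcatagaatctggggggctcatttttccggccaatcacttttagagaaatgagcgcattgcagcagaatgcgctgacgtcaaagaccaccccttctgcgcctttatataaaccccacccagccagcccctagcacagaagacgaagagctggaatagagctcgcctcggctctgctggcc
Nnat: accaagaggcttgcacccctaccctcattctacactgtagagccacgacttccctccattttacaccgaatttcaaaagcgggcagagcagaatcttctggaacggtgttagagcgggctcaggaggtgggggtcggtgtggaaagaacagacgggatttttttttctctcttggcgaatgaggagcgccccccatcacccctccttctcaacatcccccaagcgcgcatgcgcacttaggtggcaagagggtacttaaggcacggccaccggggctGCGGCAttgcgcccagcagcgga

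The most abundant members differed between the 4 groups. Levels are given as CPM, counts scaled to a common library size, after TMM scaling over all 93 libraries, and between genes only per kilobase of exon. In GFP+ cells in vivo the highest means were 332 CPM per kb for H19, the noncoding RNA beside Igf2, 316 for Mest, a hydrolase family protein, 314 for Grb10 and 185 for Asb4. In RFP+ cells in vivo they were 288 for Mest, 191 for H19 and 139 for Nnat, the small membrane protein neuronatin. In vitro GFP+ cells had Impact, an inhibitor of the kinase GCN2, at 253 CPM per kb and Peg3, a zinc finger protein, at 73.4. In vitro RFP+ cells had Nnat at 519 and H19 at 209. At the other end, Snrpn had no counts in vivo and at most 3.11 CPM in any in vitro well. Its exons overlap those of Snurf over part of their length (34.1% of exonic bases shared with other genes in GENCODE M21), and how the authors' counting treated such reads was not stated, so its level is uncertain.

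**Figure D1:**
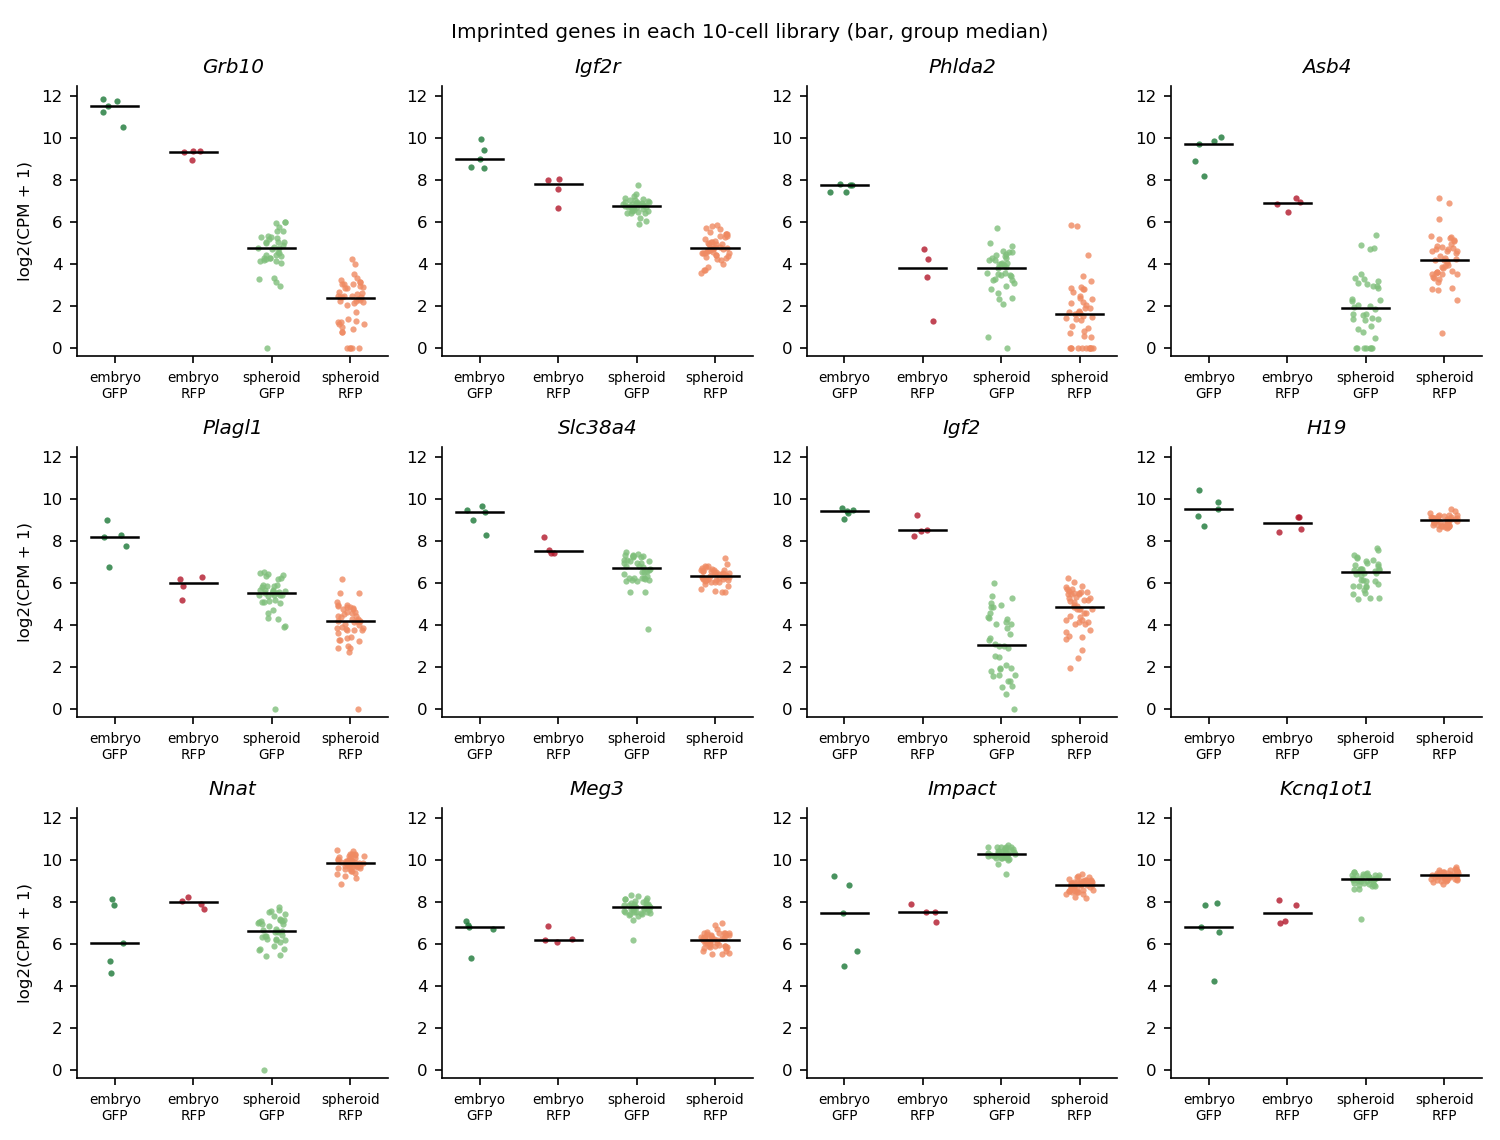
Level of 12 imprinted genes in each library, as log2(CPM + 1), in embryo (in vivo) and spheroid (in vitro) GFP+ and RFP+ cells, with 1 point per 10-cell library and a bar at the group median. Grb10 sits at 1515 to 3824 CPM in the 5 embryo GFP+ libraries and at no more than 62.9 CPM in any spheroid well.

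In vivo, members that differed between the populations were lower in RFP+ than in GFP+ cells. Of 26 members tested, 6 were called lower at an adjusted p under 0.1 (Grb10, Asb4, Phlda2, Plagl1, Slc38a4 and Igf2r), where 3.88% of the 8503 genes tested were called lower. No member was called higher by edgeR, where 6.21% of all genes were. DESeq2 also called 0 of 28 members higher, where 12.6% of 10784 genes were. At an unadjusted p under 0.05 in edgeR, 1 member (Gnas) was higher and 9 were lower. The median edgeR log2 fold change of the 26 tested members was -0.79, against 0.09 over all genes tested. Since RNA was measured in pools of 10 cells, fewer expressing cells and less RNA per cell cannot be told apart.

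Grb10 was the most abundant of the 6. Its CPM were 3824, 2955, 1515, 3517 and 2481 in the GFP+ libraries and 498, 663, 648 and 683 in the RFP+ libraries. Every GFP+ value lay above every RFP+ value. The log2 fold change was -2.23 ± 0.24 (SE), or 4.70-fold lower in RFP+ cells (edgeR adjusted p = 0.000123). The gene lies on chromosome 11 at 11930508 to 12038683 (GRCm38).

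Igf2r, the receptor that carries IGF2 to lysosomes, had 380, 685, 516, 1006 and 390 CPM in GFP+ and 191, 258, 100.5 and 265 CPM in RFP+ libraries. The groups did not overlap, and the log2 fold change was -1.59 ± 0.38 (adjusted p = 0.0181). Airn, the noncoding RNA that silences Igf2r on the paternal copy, had 0 to 97.9 CPM in GFP+ and 11.7 to 61.6 CPM in RFP+ libraries and was not called (adjusted p = 0.899). The 2 genes are neighbours on chromosome 17.

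Phlda2 had 170, 226, 221, 219 and 172 CPM in GFP+ libraries. In RFP+ libraries it had 9.47, 1.41, 17.7 and 25.1 CPM, all below the GFP+ values. Its log2 fold change of -3.95 ± 0.78 was the largest among called members in this comparison (15.4-fold, adjusted p = 0.00879). Cdkn1c, from the same cluster on chromosome 7, had 62.0 to 205 CPM in GFP+ and 21.1 to 98.4 CPM in RFP+ libraries, and the groups overlapped (adjusted p = 0.67).

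Asb4, which recruits substrates to a ubiquitin ligase, had 1088, 488, 934, 292 and 837 CPM in GFP+ and 116, 143, 122 and 87.4 CPM in RFP+ libraries. The log2 fold change was -2.69 ± 0.40 (adjusted p = 0.00126). The other 3 tested genes of its cluster on chromosome 6 were not called. Of these, Peg10 and Sgce, 2 paternally expressed neighbours, had 0 to 18.3 and 0 to 181 CPM in GFP+ and 15.04 to 70.1 and 67.5 to 124 CPM in RFP+ libraries.

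The paternally expressed members called were Plagl1 and Slc38a4. Plagl1, a zinc finger transcription factor, had 222, 292, 510, 318 and 109 CPM in GFP+ and 56.8, 35.1, 76.8 and 72.4 CPM in RFP+ libraries (log2 fold change -2.32 ± 0.52, adjusted p = 0.0133). Slc38a4, an amino acid transporter, had 318 to 812 CPM in GFP+ and 171 to 294 CPM in RFP+ libraries (log2 fold change -1.60 ± 0.33, adjusted p = 0.0106). By expressed allele, 4 of 13 tested maternal and 2 of 13 tested paternal members were called lower.

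The 6 called genes were also the members whose CPM did not overlap between the populations, all with RFP+ lower. Over all genes tested, 3.6% had no overlap with RFP+ lower and 13.7% with RFP+ higher. Igf2 and H19 were not called. Igf2 had 528 to 763 CPM in GFP+ and 305 to 614 CPM in RFP+ libraries (log2 fold change -0.74 ± 0.25, adjusted p = 0.11), and H19 had 430 to 1382 and 352 to 574 CPM (-0.83 ± 0.32, adjusted p = 0.182). With DESeq2's size factors Igf2, H19 and Peg3 were also called lower (edgeR adjusted p of 0.0476, 0.0956 and 0.0821). H19 was called without the GFP+ library B12 (adjusted p = 0.0653), and Igf2 without the GFP+ library C12 or the RFP+ library H11 (adjusted p = 0.0684 and 0.0443). Igf2 exons share 64.5% of their bases with other annotated genes, Igf2os on the opposite strand among them, and the strand setting of the counting was not stated.

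Other features moved with the same comparison. The 9 cardiomyocyte markers summed to 17781 to 51543 CPM in GFP+ and to 1178 to 2251 CPM in RFP+ libraries in vivo, with reads for all 9 in both. Fewer genes were detected in the GFP+ libraries, as given above. The median sum of every other marker list was higher in RFP+ libraries. Ranges were 18.6 to 304 against 0 to 89.3 CPM for 6 endothelial and 23.6 to 86.1 against 0 to 9.81 CPM for 6 neural genes. They were 122 to 572 against 0 to 160 CPM for 10 visceral endoderm genes. Medians were 13.8 against 0 CPM for trophoblast, 3.18 against 0 CPM for pluripotency and 0.703 against 0 CPM for blood markers. Only 2 endothelial, 1 neural and 1 visceral endoderm gene entered the fit, and none was called. Of the 10 visceral endoderm genes, 2 had reads in GFP+ and 8 in RFP+ libraries. The 4 extraembryonic mesoderm genes summed to medians of 30.3 CPM in GFP+ and 32.7 CPM in RFP+ libraries. Blood markers reached 1153 CPM in 1 RFP+ library and at most 1.07 CPM in GFP+ libraries. Of 7 trophoblast markers 1 had reads in GFP+ (at most 0.433 CPM in sum) and 2 in RFP+ libraries (3.38 to 35.7 CPM), and Cdx2, Elf5, Eomes, Prl3d1 and Tpbpa were at 0 in all 9. The part of any of these in the members' differences was not tested.

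Of the 7 members too low to enter the in vivo fit, Ascl2 and Snrpn had 0 counts in all 9 libraries, which allows up to 3 counts in each (a mean of 2.57 CPM per GFP+ and 2.24 CPM per RFP+ library, counting error only). The others were compared 1 by 1 with a two-sided exact permutation test on log2 CPM, whose smallest possible p is 0.00794. Mkrn3 (p = 0.0635), Dlk1 (p = 0.0714), Magel2 (p = 0.167), Rtl1 (p = 0.444) and Mirg (p = 0.722) gave no p under 0.05 in these exact tests. Dlk1, a Notch-like ligand, had 0 to 11.2 CPM in GFP+ and 2.91 to 15.04 CPM in RFP+ libraries.

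In vitro, 22 of 25 tested members differed between the populations, in both directions. In RFP+ cells 6 were higher (H19, Nnat, Igf2, Asb4, Gnas and Kcnq1ot1) and 16 were lower (Meg3, Rian, Peg3, Usp29, Peg10, Ppp1r9a, Mest, Phlda2, Ascl2, Grb10, Plagl1, Magel2, Igf2r, Airn, Impact and Slc38a4). With 38 and 46 wells, most genes were called, 37.8% of 9940 higher and 40.1% lower, so the size of each difference says more than its call. The members' median log2 fold change was -0.44, against -0.02 over all genes. Sgce, Ndn and Ube3a were not called (log2 fold changes of -0.00 ± 0.10, -0.10 ± 0.13 and -0.09 ± 0.05).

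Nnat and H19 had the largest rises. H19 had a lowest, median and highest CPM of 37.3, 91.3 and 204 in GFP+ wells and of 385, 519 and 755 in RFP+ wells, so that the populations did not overlap (log2 fold change 2.44 ± 0.10, 5.41-fold, adjusted p = 6.17e-42). Nnat likewise ran from 0 (in the shallow well C9) through 99.0 to 220 CPM in GFP+ and from 464 through 947 to 1457 CPM in RFP+ wells (log2 fold change 3.09 ± 0.10, 8.54-fold). Igf2 was low in both, with medians of 7.36 and 28.5 CPM and overlapping ranges (1.18 ± 0.25). Asb4, also low, had medians of 2.77 and 17.2 CPM (1.92 ± 0.32). Gnas, the stimulatory G protein alpha subunit, and Kcnq1ot1, the noncoding RNA of the Cdkn1c cluster, rose by 0.60 ± 0.05 and 0.16 ± 0.04.

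Grb10 and Igf2r, both restraints on IGF signalling, fell. Grb10 had a median of 25.8 CPM in GFP+ and 4.22 CPM in RFP+ wells, and ranges that overlapped (log2 fold change -2.72 ± 0.23, adjusted p = 1.02e-19). Igf2r had medians of 108 and 26.0 CPM, and its lowest GFP+ well (59.3 CPM) lay above its highest RFP+ well (56.9 CPM), with a log2 fold change of -1.94 ± 0.10. Its neighbour Airn fell by 0.70 ± 0.12. Plagl1 and Phlda2 fell by 1.33 ± 0.16 and 1.42 ± 0.33.

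The maternally expressed noncoding RNAs of the cluster on chromosome 12 fell, as far as they were tested. Meg3 had 73.3, 218 and 322 CPM as its lowest, median and highest in GFP+ wells and 44.7, 71.5 and 128 CPM in RFP+ wells (log2 fold change -1.61 ± 0.07, adjusted p = 4.10e-39). Its 73.3 CPM is 1 read in the shallow well C9, and the next lowest GFP+ well, E7, had 143 CPM. Rian, which hosts small nucleolar RNAs, had medians of 80.2 and 26.3 CPM (-1.71 ± 0.08). Mirg, a host of microRNAs, was too low to enter the fit (medians of 3.02 and 1.04 CPM), as were the paternally expressed Dlk1 and Rtl1 of the same cluster, with medians of at most 1.00 CPM in each group.

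Besides Mirg, Dlk1, Rtl1 and Snrpn, 4 members did not enter the in vitro fit. Cdkn1c had medians of 6.90 CPM in GFP+ and 0.87 CPM in RFP+ wells. Mkrn3, a zinc finger protein known to delay puberty, had medians of 2.44 and 6.12 CPM. Dcn, the matrix proteoglycan decorin, had medians of 0.20 and 1.61 CPM, and Zim1, a zinc finger gene of the Peg3 cluster, had reads in 3 of 38 and 3 of 46 wells. In vivo, Dcn had reads in 2 of 5 GFP+ libraries (up to 93.4 CPM) and all 4 RFP+ libraries (0.72 to 9.47 CPM).

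Peg3 and Usp29 have overlapping start windows on opposite strands of chromosome 7, and both were lower in RFP+ wells. Peg3 had medians of 991 and 409 CPM (log2 fold change -1.23 ± 0.06), Usp29, a ubiquitin protease, of 23.9 and 19.2 CPM (-0.43 ± 0.12). Impact had 660 (in the shallow well C9), 1272 and 1714 CPM as its lowest, median and highest in GFP+ wells, and 297, 458 and 648 CPM in RFP+ wells (-1.56 ± 0.05). Ascl2, a bHLH factor of the trophoblast and of stem cells, had medians of 17.4 and 0.75 CPM (-3.22 ± 0.30, 9.30-fold). Trophoblast markers summed to medians of 25.6 and 12.3 CPM and pluripotency markers to 149 and 24.5 CPM in GFP+ and RFP+ wells, with 5 of 7 and 6 of 6 genes detected in each. Visceral endoderm markers had medians of 394 and 139 CPM and extraembryonic mesoderm markers of 207 and 30.7 CPM. The other lists were not higher in GFP+ wells. Their medians were 53.1 and 58.4 CPM for cardiomyocyte, 77.6 and 81.5 CPM for neural, 10.2 and 23.9 CPM for endothelial and 0 and 0.938 CPM for blood markers. The part of any of these markers in the members' differences was not tested.

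**Figure D2:**
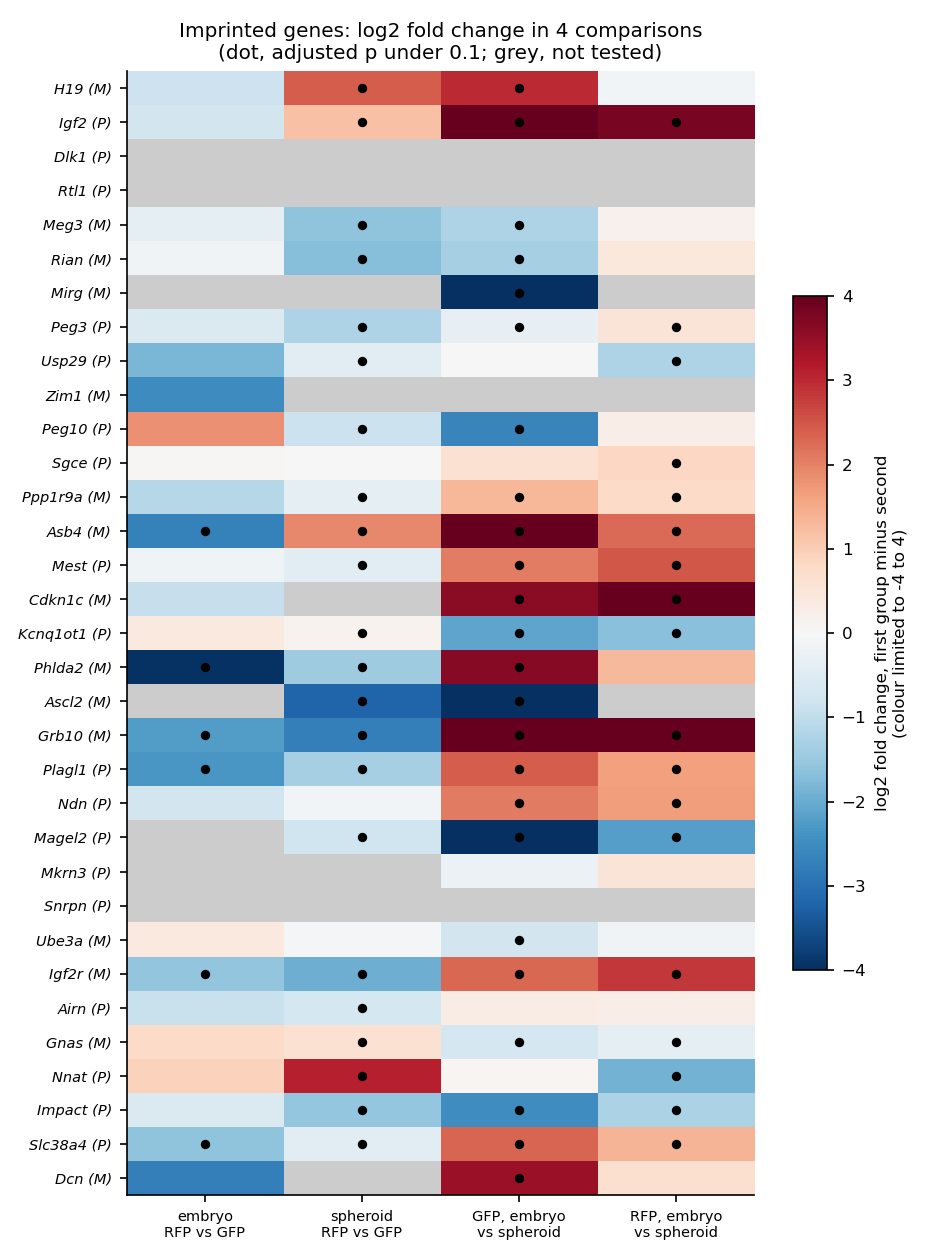
Log2 fold change of the 33 imprinted genes, labelled by known expressed allele (P, paternal; M, maternal), in the 4 comparisons, each coloured as the first group minus the second within limits of -4 to 4. Dots mark an adjusted p under 0.1 and grey cells were not tested. In the embryo 6 members are lower in RFP+ cells, and Peg3 in GFP+ cells turns from -0.32 to 0.15 with another scaling.

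Across the 2 sources, 23 members were tested in both, 6 were called in both, against 7.91% of the 8182 genes tested in both, and 5 of these were lower in RFP+ cells in both (Grb10, Igf2r, Phlda2, Plagl1 and Slc38a4), against 1.6% of all genes. None was higher in both, where 3.69% of all genes were. Asb4 was called in opposite directions. The difference between the in vivo and in vitro log2 fold changes was itself tested, from the SE of both on 7 degrees of freedom. It passed for Asb4 (difference -4.61 ± 0.51, adjusted p = 0.011), H19 (-3.27 ± 0.34, adjusted p = 0.0109) and Igf2 (-1.92 ± 0.36, adjusted p = 0.0414), where 5.26% of 8182 genes passed. In all 3, the in vitro value was positive and the in vivo value negative. For Igf2 the call was lost without the RFP+ library F12 (adjusted p = 0.102) or G11 (adjusted p = 0.135). Nnat, with 0.93 ± 0.67 in vivo and 3.09 ± 0.10 in vitro, did not pass (adjusted p = 0.201), and neither did Grb10 (difference 0.49 ± 0.33, adjusted p = 0.723).

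**Figure D3:**
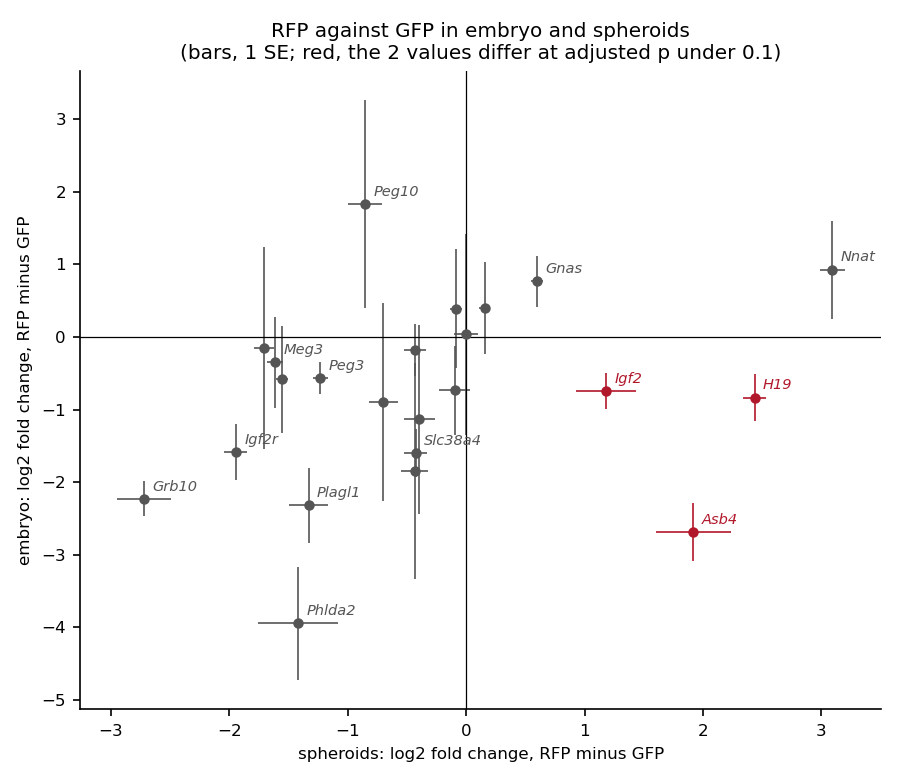
Log2 fold change of RFP+ against GFP+ cells in the embryo (vertical axis) and in spheroids (horizontal axis) for the 23 imprinted genes tested in both, with bars of 1 SE. Asb4, H19 and Igf2, in red, lie at positive values in spheroids and negative values in the embryo, and the 2 values differ for each.

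Between sources, Igf2, its clearance receptor Igf2r and Grb10 were all higher in the embryo in both populations. Each of these comparisons shares its libraries with the RFP+ against GFP+ comparisons above. In GFP+ cells 29 members were tested, 13 were higher in vivo (19.7% of 11822 genes) and 11 lower (48.3%). The median log2 fold change over all genes here was -0.67 and the members' median 0.29. Both shifted with the scaling, to -0.22 and 0.77 with DESeq2's size factors and to -0.53 and 0.46 with total counts. With DESeq2's size factors 15 members were higher and 8 lower (29.4% and 39.6% of all genes), and with DESeq2 itself 18 and 8 (23.8% and 40.4%). In RFP+ cells 27 members were tested, 12 were higher in vivo (20.1% of 11147 genes) and 6 lower (22.5%), with a median of 0.53 against -0.04 over all genes. Of 27 members tested in both populations 15 were called in both (29.5% of 10687 genes). Of these, 10 members were called higher in vivo in both populations (Grb10, Asb4, Igf2, Cdkn1c, Igf2r, Mest, Plagl1, Slc38a4, Ndn and Ppp1r9a), where 7.79% of all genes were, and 4 lower in both (Impact, Kcnq1ot1, Magel2 and Gnas), where 14.1% were. In GFP+ cells Gnas and Ube3a were not called with DESeq2's size factors (log2 fold changes of -0.24 and -0.35) or with DESeq2 (-0.24 and -0.35). Single libraries decided some of these calls. In GFP+ cells Ppp1r9a was lost without A12 (log2 fold change 0.27, against 1.32 with it), Ube3a without A12 or C12 (-0.40 and -0.43, against -0.75) and Peg3 without A12, B12 or E12 (-0.30, -0.24 and -0.20). In RFP+ cells Gnas was lost without F12 (-0.23), Ppp1r9a without G11 or G12 (0.66 and 0.59, against 0.77) and Magel2 likewise (-1.81 and -1.86, against -2.21). Other calls were gained. Sgce was called higher in GFP+ cells without A12 or D12 (0.96 and 0.92, against 0.59), Mkrn3 lower without D12 (-2.96, against -0.24) and Rian higher in RFP+ cells without G11 (0.63, adjusted p = 0.0337, against 0.41).

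Grb10 had the largest log2 fold change of the members in RFP+ cells and, after Asb4, of those called higher in GFP+ cells. It had 1515 to 3824 CPM in vivo and 0 to 62.9 CPM in vitro in GFP+ cells (log2 fold change 6.47 ± 0.22, 88.7-fold), and 498 to 683 against 0 to 17.9 CPM in RFP+ cells (7.15 ± 0.25, 142-fold). Igf2 had 528 to 763 against 0 to 62.5 CPM in GFP+ cells (5.51 ± 0.43) and 305 to 614 against 2.91 to 74.0 CPM in RFP+ cells (3.79 ± 0.27). For both genes the value of 0 in GFP+ wells is from the shallow well C9. No in vitro well reached the lowest embryo library for either gene.

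Cdkn1c had 62.0 to 205 CPM in vivo and at most 47.5 CPM in vitro in GFP+ cells (3.62 ± 0.41), and 21.1 to 98.4 against at most 7.39 CPM in RFP+ cells (5.52 ± 0.48). Igf2r was higher in vivo by 2.29 ± 0.15 in GFP+ and by 2.83 ± 0.21 in RFP+ cells, and Mest by 2.06 ± 0.21 and 2.48 ± 0.14. Asb4 was higher by 6.68 ± 0.48 in GFP+ cells and by 2.26 ± 0.42 in RFP+ cells. Phlda2 was called in GFP+ cells (3.63 ± 0.32) and had 1.31 ± 0.85 in RFP+ cells (adjusted p = 0.239).

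H19 separated the populations. In GFP+ cells it was higher in vivo by 2.98 ± 0.23 (430 to 1382 against 37.3 to 204 CPM), whereas in RFP+ cells the log2 fold change was -0.11 ± 0.11 (352 to 574 against 385 to 755 CPM, adjusted p = 0.464). Nnat had 0.08 ± 0.34 in GFP+ cells (adjusted p = 0.848) and was lower in vivo by -1.88 ± 0.18 in RFP+ cells. Meg3 and Rian were lower in vivo in GFP+ cells (-1.25 ± 0.19 and -1.34 ± 0.38) and had 0.17 ± 0.18 and 0.41 ± 0.22 in RFP+ cells, neither called.

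Among members lower in vivo in both populations, Impact had log2 fold changes of -2.47 ± 0.31 in GFP+ and -1.27 ± 0.15 in RFP+ cells, and Kcnq1ot1 of -2.10 ± 0.24 and -1.68 ± 0.13. Ascl2 and Magel2, a MAGE family protein, had no counts in the 5 GFP+ libraries in vivo. For counting error only, this puts Ascl2 at least 6.99-fold and Magel2 at least 3.49-fold lower there than in vitro. RNA lost from pools of 10 cells is outside these bounds, and fewer genes were detected in these libraries than in vitro. The members' median of 0.29 was the same with Ascl2 and Magel2 at their bound, but this could not come out otherwise, since both stay below the median there. Peg3 was called in opposite directions, with -0.32 ± 0.15 in GFP+ and 0.52 ± 0.13 in RFP+ cells, but the first turned to 0.15 with DESeq2's size factors and was not called. Pluripotency markers were also lower in vivo, where they summed to at most 2.60 CPM in GFP+ and 5.10 CPM in RFP+ libraries, against 35.8 to 1559 and 4.22 to 557 CPM in vitro. Cardiomyocyte markers were far higher in vivo, at 17781 to 51543 against 0 to 1255 CPM in GFP+ and 1178 to 2251 against 13.9 to 139 CPM in RFP+ cells. In GFP+ cells every neural (5), visceral endoderm (3) and trophoblast (3) marker tested was called lower in vivo, where 48.3% of all genes were. In the embryo GFP+ libraries only 2 of 6 neural, 2 of 10 visceral endoderm and 1 of 7 trophoblast genes had reads. Markers without reads there entered the fit through the spheroid wells alone, so their direction was fixed in advance. In RFP+ cells these lists were mixed, and 20.1% of all genes were called higher and 22.5% lower in vivo. There 1 neural marker was higher and 2 lower in vivo of 5 tested. For visceral endoderm 1 was higher and 1 lower of 3, and for trophoblast 1 was higher and 1 lower of 2. The part of these markers in the members' differences was not tested.

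The balance between paternally and maternally expressed members differed between the groups. The 18 paternal members summed to 3583, 4528 and 5511 CPM (lowest, median and highest) in GFP+ and 3199, 3270 and 3849 CPM in RFP+ libraries in vivo, and the 15 maternal members to 4231, 5574 and 7417 CPM and to 2091, 2248 and 2674 CPM. In vitro, paternal sums had medians of 3578 CPM in GFP+ and 3055 CPM in RFP+ wells, and maternal sums of 1212 and 1526 CPM. The paternal share of the summed CPM was 32.6% to 56.5% in GFP+ and 54.5% to 64.8% in RFP+ libraries in vivo, and 69.4% to 79.4% and 51.5% to 71.5% in vitro. These sums are descriptions, with no test, and they say nothing about which copy was read.

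A few genes with many reads set these sums, which are not scaled by gene length. In GFP+ cells in vivo Grb10 made up 26.8% of the summed mean of all members, and Mest 11.7%. In GFP+ cells in vitro Impact made up 27.1% and Peg3 20.5%, and in RFP+ cells in vitro Nnat 21.0% and Gnas 14.5%. Without H19, the mean maternal sum in vitro fell from 1528 to 1013 CPM in RFP+ wells and from 1197 to 1104 CPM in GFP+ wells, so the order of the 2 populations turned.

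**Figure D4:**
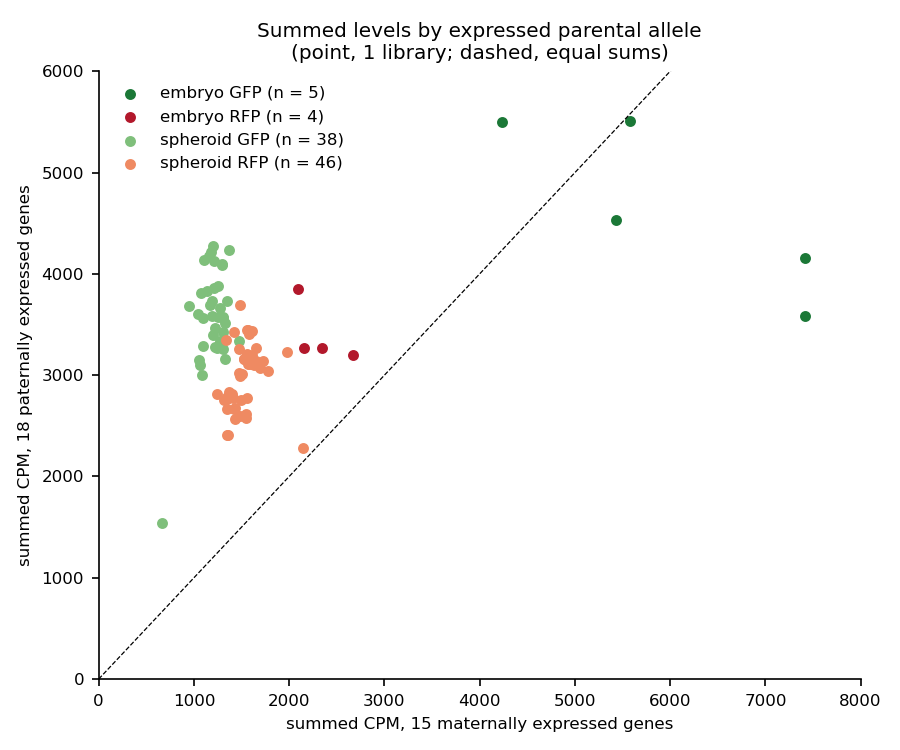
Summed CPM of the 15 maternally expressed genes (horizontal axis) against the 18 paternally expressed genes (vertical axis), with 1 point per library, coloured by group, and a dashed line where the sums are equal. Embryo GFP+ libraries have maternal sums of 4231 to 7417 CPM, to the right of all other libraries, and the lone spheroid GFP+ point at the lower left is the shallow well C9.

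Genes of 1 cluster might vary together between wells. Within each in vitro population, 10 of 13 pairs fixed for this comparison had enough wells with reads (each gene in at least 36 of 38 GFP+ and 28 of 46 RFP+ wells), and the 20 correlations of log2 CPM were tested by permutation (100000 resamples, both coefficients adjusted together). Wells of 1 population may share a differentiation and a plate, and C9 weighs heavily. In GFP+ wells Peg3 and Usp29 had r = 0.59 (rho = 0.47, n = 38, permutation p = 3e-05 and 0.0031, adjusted p = 0.0012 and 0.015), and r = 0.55 without the 2 wells farthest from the median. Leaving out C9 and with the near-identical wells summed, r was 0.56 (adjusted p = 0.014). The same pair had r = 0.13 in RFP+ wells (rho = 0.08, n = 46, permutation p = 0.37 and 0.61, adjusted p = 0.53 and 0.76).

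Meg3 and Rian had r = 0.74 in GFP+ wells (rho = 0.49, permutation p = 8e-05 and 0.0021, adjusted p = 0.0016 and 0.015), which dropped to 0.44 without the 2 farthest wells and was 0.46 without C9 (adjusted p = 0.067). In RFP+ wells the pair had r = 0.17 (rho = 0.13, permutation p = 0.26 and 0.38, adjusted p = 0.43 and 0.53). Cdkn1c and Phlda2 had r = 0.53 in GFP+ wells (rho = 0.50, permutation p = 0.0009 and 0.0018, adjusted p = 0.012 and 0.015), 0.41 without the 2 farthest wells and 0.42 without C9 (adjusted p = 0.072). In RFP+ wells this pair had r = -0.28 (rho = -0.27, permutation p = 0.058 and 0.066, adjusted p = 0.14 for both). H19 and Igf2, neighbours on chromosome 7, had r = 0.05 in GFP+ wells (rho = 0.06, permutation p = 0.78 and 0.73, adjusted p = 0.84 for both) and 0.04 in RFP+ wells (rho = -0.05, permutation p = 0.81 and 0.76, adjusted p = 0.84 for both). Negative values were found for 2 pairs in GFP+ wells. Igf2r and Airn had r = -0.50 (rho = -0.41, permutation p = 0.0034 and 0.011, adjusted p = 0.015 and 0.034), which was -0.28 both without the 2 farthest wells and without C9 (adjusted p = 0.22), and H19 and Cdkn1c had r = -0.43 (rho = -0.42, permutation p = 0.0071 and 0.0094, adjusted p = 0.028 and 0.031), then -0.40 and -0.39 (adjusted p = 0.1). In RFP+ wells these pairs had r = -0.26 and 0.15 (permutation p = 0.081 and 0.32, adjusted p = 0.15 and 0.5). Rian and Mirg passed by Pearson's r in both populations. They had r = 0.44 in GFP+ wells (rho = 0.32, permutation p = 0.0022 and 0.053, adjusted p = 0.015 and 0.13), which dropped to 0.19 without the 2 farthest wells. In RFP+ wells r was 0.38 (rho = 0.44, permutation p = 0.0089 and 0.0026, adjusted p = 0.031 and 0.015), and 0.41 without the 2 farthest wells. In all, 7 of the 20 correlations had an adjusted p under 0.1 by Pearson's r. Without C9 and with the near-identical wells summed 4 of these lost it, among them Rian and Mirg in both populations (adjusted p = 0.2 and 0.1). Whether the correlations differ between the populations was not tested.

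**Figure D5:**
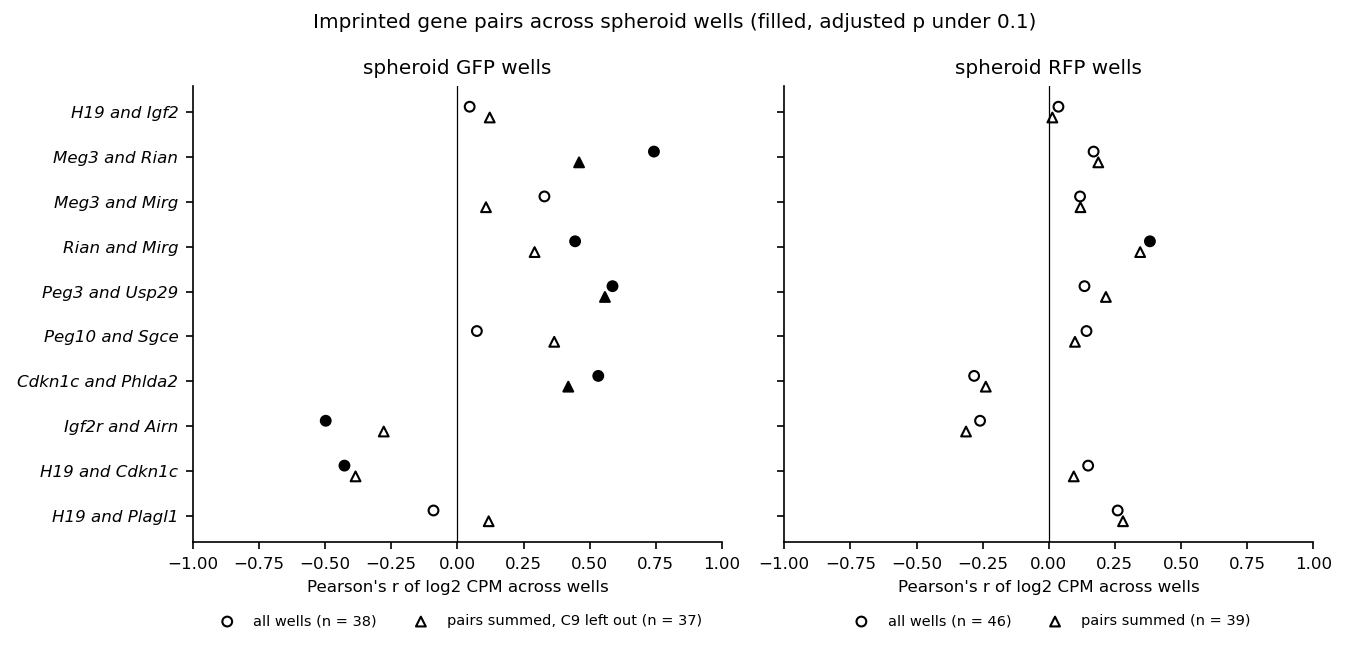
Pearson's r of log2 CPM between pairs of imprinted genes across spheroid wells, in GFP+ wells (left) and RFP+ wells (right). Circles use all wells (n = 38 and 46), triangles the wells with near-identical pairs summed and C9 left out (n = 37 and 39), and filled symbols have an adjusted p under 0.1. In GFP+ wells 3 pairs stay filled in both, Peg3 and Usp29 at 0.59 and 0.56, Meg3 and Rian at 0.74 and 0.46, and Cdkn1c and Phlda2 at 0.53 and 0.42.

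Genes that work with the members were described from lists. A list of 17 factors that set, keep or remove DNA methylation or imprints included the demethylating Tet enzymes. Of these 17, 15 were tested between populations in each source. In RFP+ cells 1 was higher and 1 lower in vivo, and 7 were higher and 5 lower in vitro. Over all genes tested, 6.21% were called higher and 3.88% lower in vivo, and 37.8% and 40.1% in vitro. These shares apply to the lists below as well. Trim28, the cofactor of ZFP57, was higher in RFP+ cells in both (log2 fold changes of 1.31 and 0.90, adjusted p = 0.0303 and 4.64e-34), with 133 to 411 against 452 to 734 CPM in vivo. Dnmt3a, a de novo DNA methyltransferase, was lower in both (-1.49 and -0.86, adjusted p = 0.0709 and 3.68e-21), with 139 to 344 against 54.0 to 112 CPM in vivo. Zfp57 itself had 19.8 to 110 CPM in GFP+ and 7.88 to 33.5 CPM in RFP+ libraries in vivo (adjusted p = 0.467).

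Of 15 other genes of the IGF axis, 10 were tested in vivo, with 0 higher and 1 lower in RFP+ cells, and 11 in vitro, with 8 higher and 2 lower. The one called in both was Igfbp5, an IGF binding protein, which was lower in RFP+ cells in vivo (-2.37, adjusted p = 0.000926, 864 to 1973 against 153 to 406 CPM) and higher in vitro (2.81, adjusted p = 1.51e-39). Of 46 other imprinted genes, 16 were tested in vivo, with 1 higher (Commd1, 1.48, adjusted p = 0.0532) and 1 lower (Nap1l4, -1.61, adjusted p = 0.00936). In vitro 21 were tested, with 8 higher and 11 lower, Commd1 (0.68) and Nap1l4 (0.22) among the higher ones. Their median log2 fold change in vivo was -0.05, against -0.79 for the members described above and 0.09 over all genes tested. In vitro it was -0.41, against -0.44 for the members. Of 6 other Cdk inhibitors, 1 was tested in vivo and not called, and in vitro 1 of 4 tested was higher and 3 were lower in RFP+ cells.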

How the data were processed

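RNA of 10 sorted cells per well was reverse transcribed from poly(A) primers, amplified and sequenced. The authors used Trimmomatic 0.36 for trimming (quality of at least 35, length of at least 36), HISAT2 2.0.4 for mapping to mm10 and featureCounts 1.5.2 for counting, and deposited 1 table of raw counts without normalization. Strand setting and annotation were not given in the sources used here. Reads have no molecular identifiers, so limits of 3 counts cover counting error only. All 93 libraries were grouped by their labels.

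The counts were fitted with edgeR 4.0.16 (R 4.3.3) using TMM, filterByExpr (minimum count 10, total 15, proportion 0.7) and the quasi-likelihood F-test, separately for each comparison, with Benjamini-Hochberg adjustment over all genes tested. A gene was called at an adjusted p under 0.1, the study's threshold. SE was the log2 fold change over the root of F. CPM used 1 TMM scaling over all libraries and log2 CPM a prior count of 2. The fit was tested on simulated counts. Alternatives were DESeq2 1.42.0, its size factors, total counts, no filter, a threshold of 0.05, 1 fit over 4 groups, plate row, wells summed and libraries left out. Leaving out embryo libraries from the difference between sources was added after seeing the data. All members were named, and from the other lists at most 5 genes called between populations in both sources. Members and lists were chosen with earlier results of these data known.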

Additional observations from a re-analysis of the deposited data

Results flagged for a closer look

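In 52 sets of in vivo values (26 tested members in 2 populations), 1 library lay far from the others of its group in 2 sets, no more than the 1 in 20 that chance gives. Zim1, a maternally expressed zinc finger gene of the Peg3 cluster, had 174 CPM in the GFP+ library A12 and 0 to 16.9 CPM in the other 4. Airn had 61.6 CPM in the RFP+ library G12 and 11.7 to 18.6 CPM in the other 3. Neither gene was called between the populations in vivo.

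For 3 members the RFP+ against GFP+ log2 fold change differed between embryo and spheroids by a test of the difference. The differences, in vivo minus in vitro, were -4.61 for Asb4, -3.27 for H19 and -1.92 for Igf2.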

How the results depend on the processing

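In 1 fit over all 4 groups, which shares the spread of the spheroid wells with the embryo libraries, 5 members were called higher and 11 lower in RFP+ cells in vivo, against 0 and 6, while the share of all genes called rose to 37.7% higher and 18.5% lower, against 6.21% and 3.88%. An interaction term in that fit passed for 14 of 30 members (54.4% of 12655 genes), against 3. The other counts of called members stayed within 1.5 times. When each embryo library was left out in turn, 6 to 7 members were lower in RFP+ cells in vivo, with the same 6 among them each time. In these fits 2.4% to 4.81% of all genes were called lower. Between sources 2 to 4 members differed. The share of all genes was not computed for these tests, and it was 5.26% with all libraries. Peg3 in GFP+ cells between sources turned from -0.32 to 0.15 with DESeq2 and to 0.15 with its size factors in edgeR, and H19 and Plagl1 across GFP+ wells from r = -0.0905 to 0.118 without C9 and with near-identical wells summed. Of 960 values of single members under alternatives, 913 kept direction and side of the threshold, 25 gained a call, 20 lost it and 2 reversed. A further 36 values, not called either way, changed sign. No paired analysis was possible because well positions do not tie wells of different groups to 1 embryo or differentiation. With plate row as a covariate, 6 members were higher and 16 lower in RFP+ cells in vitro, as without it (37.9% and 40.1% of all genes). Depth limits what a count of 0 shows, which in the embryo allows, by counting error only, a mean of up to 2.57 CPM per GFP+ and 2.24 CPM per RFP+ library.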
